A study of Danio rerio with 10 samples.

Results

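The genes described here encode the proteins of the cytosolic ribosome. They were taken by a rule on names, chosen with earlier results of these data known. It takes every row of the count table whose zebrafish gene name begins with rps or rpl and a digit, or with rplp. The S6 kinases (rps6k), the rps19bp names and names ending in l1 were left out, and 81 of 32266 genes fitted. Of these, 36 belong to the small subunit, 41 to the large subunit and 4 to the stalk (RPLP0, RPLP1, rplp2 and rplp2l). Symbols are printed as the naming table gives them, several in the upper case of their human counterparts, and the Ensembl identifier is added where 2 genes carry the same symbol.

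Brains of zebrafish of the Tübingen strain were taken at 6 months of age, pooled 2 to a tube, and their RNA was sequenced. The groups were ppp2r2c m1/m1 fish that received methylphenidate (MPH, known as Ritalin) at 1.08 mg/kg for 3 days (3 libraries), ppp2r2c m1/m1 fish that received valproate at 300 mg/kg for 3 days (3 libraries), ppp2r2c m1/m1 fish with vehicle (2 libraries, called mutant vehicle below) and WT fish with vehicle (2 libraries). ppp2r2c encodes a regulatory subunit of the phosphatase PP2A, and the m1 mutation is a CRISPR-Cas9 frameshift. The paper made 2 mutant lines, and all mutant libraries here are of 1 of them. In this series both drugs were given to mutants only, so no library shows a drug in WT brains. The series design calls the libraries biological replicates, and p-values measure the spread between these pools.

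A ribosome joins a small subunit, which reads the mRNA, to a large subunit, which forms peptide bonds, and each subunit holds its own set of proteins around its ribosomal RNA. The stalk is a flexible arm of the large subunit, built on RPLP0 with RPLP1 and RPLP2, that recruits elongation factors. In vertebrates most of these mRNAs begin with a terminal oligopyrimidine (TOP) tract, and their translation responds together to the kinase mTOR through the cap-binding protein LARP1. They are among the most abundant mRNAs of most tissues, the brain included.

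Libraries held between 19224942 and 25851076 counts on genes, of which mitochondrially encoded genes took 5.0% to 7.86% and the 10 most counted genes 8.42% to 12.4%. The defining neuron markers summed to between 7114.6 and 8372.4 CPM (counts scaled to a common library size over all 10 libraries by edgeR's TMM method) in every library. The targeted gene, PPP2R2C, had 49.1, 70.6 and 39.3 CPM in MPH libraries, 70.5, 56.1 and 59.7 in valproate, 46.3 and 46.7 in mutant vehicle and 50.3 and 54.7 in WT, and counts per gene do not read the edited allele. In bulk brain RNA, fewer cells of a type and less RNA per cell cannot be told apart.

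The 81 genes took 5.82%, 3.36% and 3.93% of all counts in the MPH libraries, 3.06%, 3.02% and 2.67% in the valproate libraries, 3.86% and 3.25% in the mutant vehicle libraries and 2.93% and 3.42% in the WT libraries. The share averaged 4.37% ± 1.29 with MPH, 2.92% ± 0.215 with valproate (SD, n = 3 each), 3.55% ± 0.431 in mutant vehicle and 3.17% ± 0.346 in WT (SD, n = 2 each). All 3 MPH libraries lay above all 3 valproate libraries, and MPH replicate 1 lay above every other library. Each subunit did so on its own, with small-subunit genes at 2.2%, 1.23% and 1.44% in MPH libraries against 1.14%, 1.11% and 0.979% in valproate libraries, and large-subunit genes at 3.13%, 1.85% and 2.18% against 1.67%, 1.66% and 1.47%. The stalk genes took 0.488%, 0.276% and 0.301% with MPH and 0.25%, 0.245% and 0.216% with valproate.

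**Figure D1:**
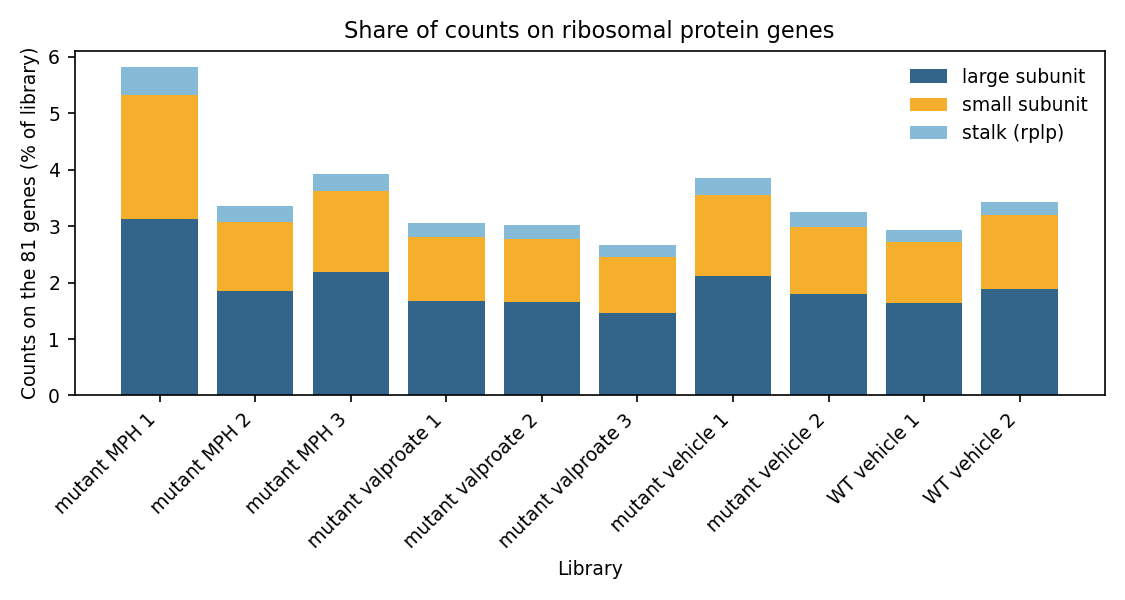
Percent of each library's counts (y axis) that fell on the 81 ribosomal protein genes, stacked by large subunit, small subunit and stalk, for the 10 libraries (x axis). MPH replicate 1 stood at 5.82% and the other 9 libraries between 2.67% and 3.93%.

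The most abundant of the genes by counts was RPLP0, the base of the stalk, with 3428, 1611 and 1696 CPM in MPH libraries, 1596, 1284 and 1148 in valproate, 1816 and 1334 in mutant vehicle and 1073 and 1175 in WT. RPL6, a large-subunit protein, had 1797, 979 and 1134 CPM in MPH libraries, 888, 836 and 737 in valproate, 1122 and 909 in mutant vehicle and 818 and 968 in WT. RPS2, at the mRNA entry of the small subunit, had 2072, 982 and 938 CPM in MPH libraries, 979, 747 and 656 in valproate, 1139 and 824 in mutant vehicle and 852 and 962 in WT. In each of these 3 genes MPH replicate 1 was the highest library, and the other MPH libraries stood near the mutant vehicle libraries. RPL3, which reaches toward the peptidyl transferase centre, had 1574, 971 and 904 CPM in MPH libraries, 828, 744 and 628 in valproate, 1157 and 876 in mutant vehicle and 706 and 795 in WT. RPL4, whose extension lines the exit tunnel for the new peptide, had 1184, 887 and 914 CPM in MPH libraries, 793, 709 and 635 in valproate, 1001 and 818 in mutant vehicle and 730.1 and 681 in WT. RPL3 and RPL4 completed the 5 genes with the highest mean, and counts are not scaled to transcript length, so levels of different genes are not ranked as RNA amounts.

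At the low end stood rps11l, with 27, 1 and 5 counts in MPH libraries, 0, 12 and 3 in valproate, 9 and 10 in mutant vehicle and 3 and 0 in WT. A count of 0 allows up to 3 counts, 0.146 CPM in valproate replicate 1 and 0.132 CPM in WT replicate 2, a limit that covers counting error only. It was left out wherever deviations from a mean over libraries are given, and the filter on low counts left it out between genotypes and between the drugs, so 80 genes enter those statements. Next in level came genes that include rps27l, known in human cells as a p53-inducible relative of RPS27, with 18.6, 18.8 and 15.0 CPM in MPH libraries, 15.5, 11.99 and 10.5 in valproate, 11.5 and 9.87 in mutant vehicle and 15.1 and 11.96 in WT. RPS12, a small-subunit protein, had 112, 71.1 and 78.2 CPM in MPH libraries, 66.0, 60.9 and 54.4 in valproate, 74.4 and 77.8 in mutant vehicle and 66.6 and 63.1 in WT.

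MPH replicate 1 stood higher across nearly the whole set. Set against the mean of each gene over the 10 libraries, the median of the 80 genes lay at 0.93, 0.00 and 0.19 (log2) in the MPH libraries, −0.11, −0.26 and −0.40 in valproate, 0.16 and −0.16 in mutant vehicle and −0.26 and −0.11 in WT. In MPH replicate 1, 79 of 80 genes were above their own mean, and for 76 of 80 it was the highest of the 10 libraries. In valproate replicates 1, 2 and 3, 8, 0 and 1 of 80 were above their own mean, and replicate 3 was the lowest library for 64 of 80. Replicates of the same group differed by a median of 0.61 (log2) per gene among MPH libraries, 0.19 among valproate libraries, 0.31 in mutant vehicle and 0.16 in WT, where all genes tested differed by 0.38, 0.26, 0.21 and 0.25.

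**Figure D2:**
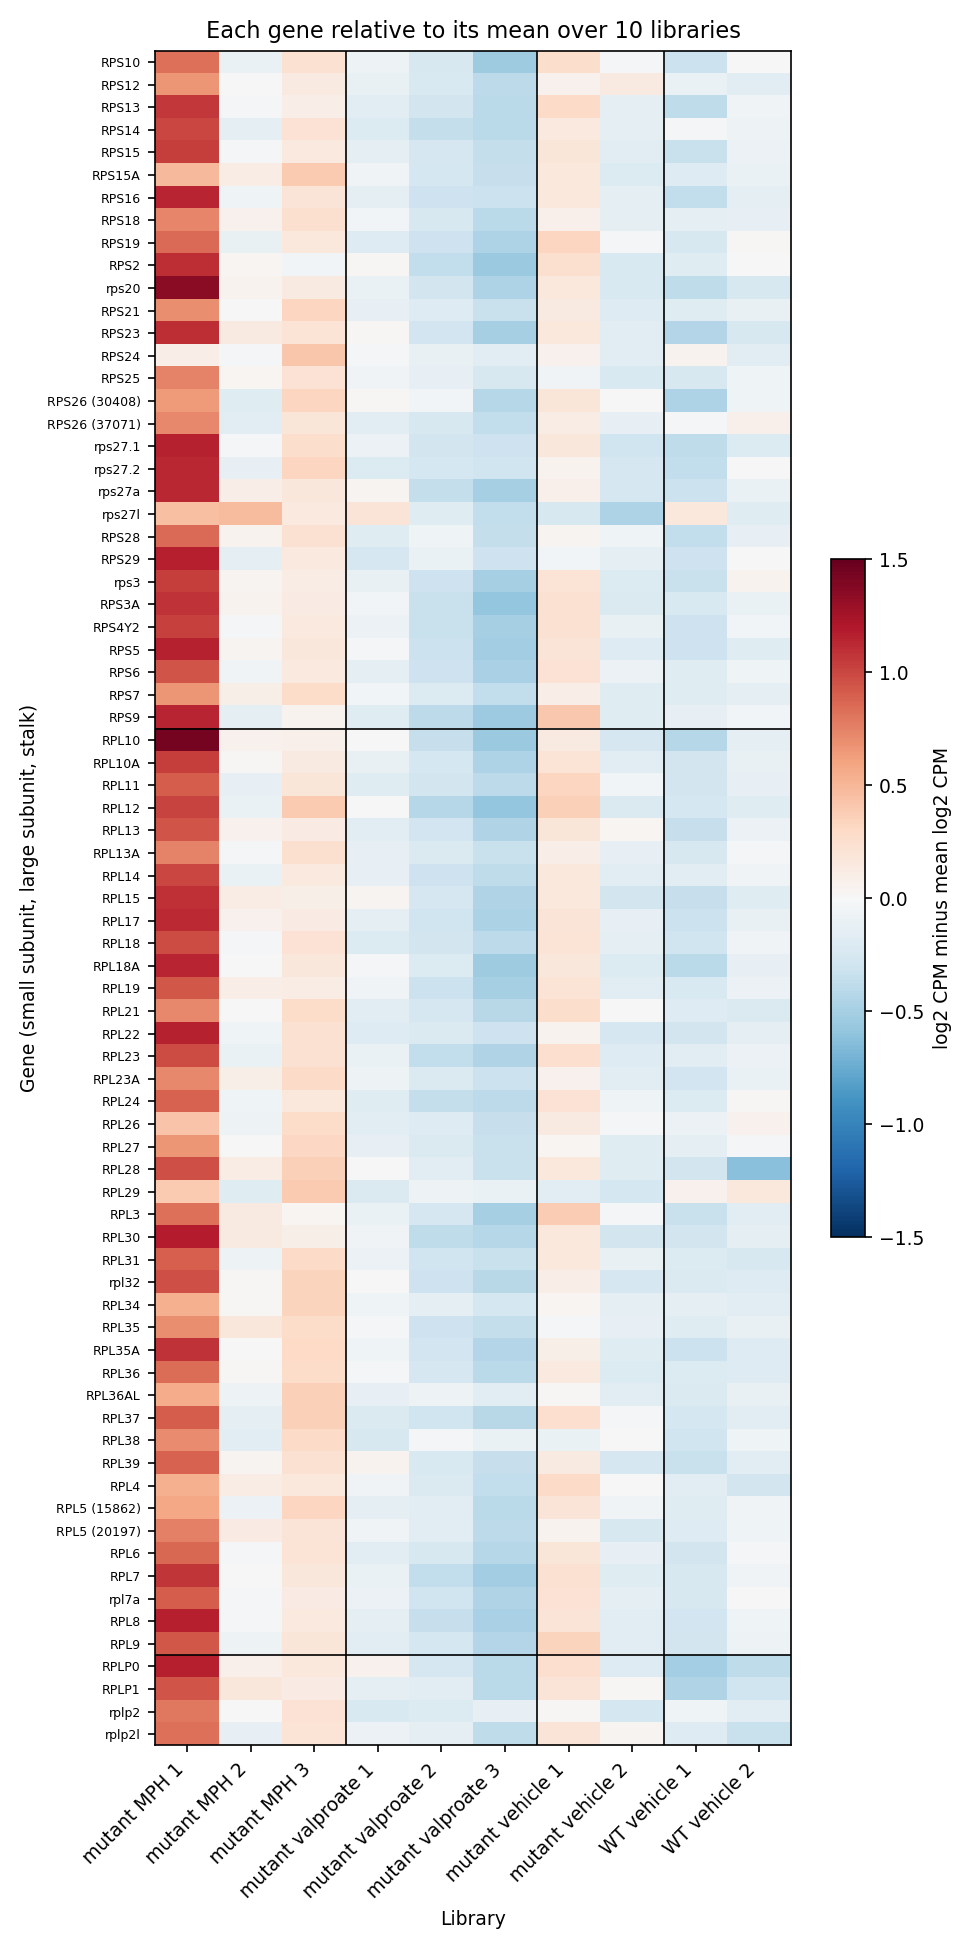
Each of 75 of the 80 ribosomal protein genes (rows, small subunit above large subunit above stalk) in each library (columns), as log2 CPM minus the gene's mean log2 CPM over the 10 libraries, with red above and blue below the mean. Digits in brackets are the last 5 of the Ensembl identifier where a symbol occurs more than once. Among all 80, MPH replicate 1 was the highest library for 76 genes and valproate replicate 3 the lowest for 64.

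The size of that difference varied between genes. The level in MPH replicate 1 over the mean of MPH replicates 2 and 3 had a median of 1.79 over the 80 genes (interquartile range 1.51 to 1.97), beside 0.986 over 18921 genes with counts in every library (interquartile range 0.799 to 1.23). It was largest for RPL10, the protein that completes the large subunit late in its assembly, at 2.58, then rps20 in the head of the small subunit at 2.39 and RPS9 at the mRNA entry at 2.26. It was smallest for RPS24, a small-subunit protein, at 0.927, and low as well for rps27l at 1.1. RPS24 had 296, 271 and 368 CPM in MPH libraries, 271, 255 and 247 in valproate, 288 and 246 in mutant vehicle and 285 and 247 in WT, and it was the 1 gene of the 80 with a ratio under 1.

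Between MPH and valproate, given to fish of the same genotype, 80 of 80 genes tested had a higher level with MPH, by a median log2 fold change of 0.70 (1.62-fold), where the median of 19387 genes tested was 0.0019. In edgeR's quasi-likelihood test with Benjamini-Hochberg adjustment none passed the threshold of 0.05 (smallest adjusted p = 0.997), and neither did any other gene (0.0% of the genes tested). DESeq2 also called none of the 80, while it called 5 genes higher and 35 lower over the whole table. At an unadjusted p under 0.05, 74 of 80 (92.5%) were higher with MPH and 0 lower, beside 2.25% of all genes tested that were higher. For 65 of 80 (81.2%), all 3 MPH libraries lay above all 3 valproate libraries, beside 4.46% of all genes tested. The genes rose and fell together between libraries, so counts of them, here and below, are not independent observations.

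The largest differences between the drugs included the 2 genes in which MPH replicate 1 stood most apart. RPL10 had 1996, 773 and 777 CPM in MPH libraries, against 738, 579.8 and 503 in valproate libraries (log2 fold change 0.97, standard error 0.37, adjusted p = 0.997). rps20 had 995, 403 and 428 CPM with MPH, against 362, 322 and 281 with valproate (log2 fold change 0.93, standard error 0.33, adjusted p = 0.997). RPL8, which lies close to the peptidyl transferase centre, had 1744, 768 and 859 CPM with MPH, against 699.6, 613 and 556 with valproate (log2 fold change 0.86, standard error 0.30, adjusted p = 0.997). In all 3 genes the groups did not overlap, but MPH replicates 2 and 3 were much nearer to valproate than to MPH replicate 1. Among the smallest differences were those of RPS24 (log2 fold change 0.28, standard error 0.16, adjusted p = 0.997) and of RPL29, a large-subunit protein, with 167, 112 and 167 CPM with MPH and 109, 121 and 119 with valproate (log2 fold change 0.36, standard error 0.18, adjusted p = 0.997).

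Without MPH replicate 1 the median log2 fold change between the drugs was 0.35, with 30 genes (37.5%) higher at an unadjusted p under 0.05, beside 0.883% of all genes, and the 2 remaining MPH libraries lay above all valproate libraries for 65 of 80 genes, beside 6.86% of all genes. That replicate was the highest library for 76 of 80 genes, so leaving it out could hardly change the count without overlap. Without valproate replicate 2 the unadjusted count was 32 of 80 (40.0%), beside 1.46% of all genes. Without valproate replicate 3 it was 7 of 81 (8.64%), beside 0.658% of all genes. There 66 of 80 genes (82.5%) did not overlap, beside 6.59%. Valproate replicate 3 was the lowest library for 64 of 80 genes, so that count too could hardly change.

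Against mutant vehicle, MPH libraries had a higher fitted level for 80 of 81 genes, with a median log2 fold change of 0.41 (1.33-fold) where all 19907 genes tested had 0.0083. In the edgeR fit on the groups alone no gene of the 81 had an adjusted p under 0.05 (0.216% of all genes tested did). DESeq2 called none of them either, beside 1.92% of all genes. At an unadjusted p under 0.05, 2 were higher and 0 lower, 2.47% beside 6.73% of all genes tested that were higher, and the libraries did not overlap for 7 (8.64%, beside 15.7% of all genes). Both shares lay below those of all genes. The 2 were rps27l and RPL35, a protein near the exit of the peptide tunnel. The direction upward was shared by other lists. Of 31 other genes listed as TOP mRNAs, 23 were higher and 8 lower with MPH (median log2 fold change 0.21). Of 112 tested nuclear genes for oxidative phosphorylation, 90 were higher and 22 lower (0.22). Of 73 mitochondrial ribosome genes, 47 were higher and 26 lower (0.12).

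RPL10 had the highest fitted value, with 1996, 773 and 777 CPM with MPH and 812 and 622 in mutant vehicle (log2 fold change 0.71, standard error 0.41, adjusted p = 0.555). rps27l followed, with 18.6, 18.8 and 15.0 CPM with MPH and 11.5 and 9.87 in mutant vehicle (log2 fold change 0.71, standard error 0.23, adjusted p = 0.31), and rps20 came next, with 995, 403 and 428 CPM with MPH and 432 and 331 in mutant vehicle (log2 fold change 0.67, standard error 0.38, adjusted p = 0.555). In RPL10 and rps20, MPH replicates 2 and 3 lay between both mutant vehicle libraries, whereas all 3 MPH libraries of rps27l lay above both mutant vehicle libraries. Among the lowest fitted values were those of RPL4 (log2 fold change 0.13, standard error 0.21, adjusted p = 0.862) and RPL26, at the tunnel exit, with 750.2, 528 and 672 CPM with MPH and 612 and 545 in mutant vehicle (log2 fold change 0.17, standard error 0.20, adjusted p = 0.802). Without MPH replicate 1 the median over the set was 0.080, and without mutant vehicle replicate 2 it was 0.26. The share at an unadjusted p under 0.05 was 1.25% (1 gene) without MPH replicate 1, beside 5.53% of all genes, 25.9% (21 genes) without replicate 2, beside 5.94%, and 7.41% (6 genes) without replicate 3, beside 11.1%. It was 0 genes without mutant vehicle replicate 1, beside 2.63% of all genes, and 0 without mutant vehicle replicate 2, beside 2.91%. The share without overlap was 56.8% (46 genes) without MPH replicate 2, beside 21.3% of all genes, and 81.5% (66 genes) without mutant vehicle replicate 1, beside 24.3%. It was 7 genes (8.64%) without MPH replicate 1 (20.5% of all genes), MPH replicate 3 (25.7%) or mutant vehicle replicate 2 (25%). Each time it lay below the share of all genes. Leaving out MPH replicate 1, the highest library for 76 of 80 genes, could hardly change that count.

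Against mutant vehicle, valproate libraries had a lower fitted level for 79 of 81 genes, with a median log2 fold change of −0.28 (0.825-fold) where all 19850 genes tested had 0.004. None had an adjusted p under 0.05 in edgeR (smallest 0.182, beside 0.131% of all genes that were called). DESeq2 called none of them either, beside 4.11% of all genes. At an unadjusted p under 0.05, 18 were lower and 0 higher, 22.2% beside 7.82% of all genes tested that were lower. For 27 (33.3%) all valproate libraries lay below both mutant vehicle libraries, beside 17.3% of all genes. Without mutant vehicle replicate 1 the median was −0.11 and the unadjusted count 0, beside 3.25% of all genes, and without mutant vehicle replicate 2 they were −0.43 and 32 (39.5%), beside 5.13%. The unadjusted count was 51 (63.8%) without valproate replicate 1, beside 11.4% of all genes, 5 (6.25%) without replicate 2, beside 6.8%, and 0 without replicate 3, beside 6.07%. The share without overlap was 77.8% (63 genes) without valproate replicate 1, beside 25.6% of all genes, and 92.6% (75 genes) without mutant vehicle replicate 2, beside 29.2%. It was 37.0% without valproate replicate 2, beside 23.3% of all genes, and 34.6% without valproate replicate 3, beside 22.2%. Without mutant vehicle replicate 1 it was 35.8%, beside 27.1%. Valproate replicate 3 was the lowest library for 64 of 80 genes, so leaving it out could hardly change the share. The direction downward was shared by other lists. Of 31 other genes listed as TOP mRNAs, 22 were lower and 9 higher with valproate (median log2 fold change −0.15). Of 111 tested nuclear genes for oxidative phosphorylation, 81 were lower and 30 higher (−0.14). Of 73 mitochondrial ribosome genes, 57 were lower and 16 higher (−0.11).

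RPS9 had 412, 357 and 319 CPM with valproate, against 616 and 413 in mutant vehicle (log2 fold change −0.52, standard error 0.20, adjusted p = 0.25). RPS19, a small-subunit protein mutated in Diamond-Blackfan anaemia, had 277, 257 and 231 CPM with valproate, against 399 and 311 in mutant vehicle (log2 fold change −0.49, standard error 0.15, adjusted p = 0.182). RPL3 had 828, 744 and 628 CPM with valproate, against 1157 and 876 in mutant vehicle (log2 fold change −0.48, standard error 0.18, adjusted p = 0.241). The valproate and vehicle libraries did not overlap in any of these 3 genes. The lowest fitted value of all, for rps11l (log2 fold change −0.81, standard error 1.19, adjusted p = 0.78), rests on the few counts given above. At the other end stood rps27l (log2 fold change 0.24, standard error 0.22, adjusted p = 0.643), RPL29 (log2 fold change 0.071, standard error 0.11, adjusted p = 0.793) and RPS25, a small-subunit protein used by viral internal ribosome entry, with 359.7, 344 and 317 CPM with valproate and 360.5 and 318 in mutant vehicle (log2 fold change −0.0078, standard error 0.13, adjusted p = 0.983).

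Between genotypes, mutant vehicle libraries had a higher fitted level than WT for 76 of 80 genes tested, with a median log2 fold change of 0.20 (1.15-fold) where 19695 genes tested had −0.0055. None had an adjusted p under 0.05 in edgeR (smallest 0.322, beside 0.193% of all genes that were called). DESeq2 called 1 (1.23%), RPLP1 (adjusted p = 0.0309 in its Wald test), beside 1.09% of all genes. At an unadjusted p under 0.05, 8 were higher and 1 lower, 10.0% beside 4.8% of all genes tested that were higher. Both mutant vehicle libraries lay above both WT libraries for 19 (23.8%), beside 20.5% of all genes. Without mutant vehicle replicate 1 the median was 0.012 and the unadjusted count 0, beside 2.02% of all genes, and without mutant vehicle replicate 2 they were 0.37 and 27 (33.8%), beside 3.56%. Without WT replicate 1 they were 0.12 and 4 (4.94%), beside 6.23% of all genes. The share without overlap was 93.8% (75 genes) without mutant vehicle replicate 2, beside 33.7% of all genes, and 76.2% (61 genes) without WT replicate 2, beside 36.0%. It lay below that of all genes without mutant vehicle replicate 1 (25%, beside 32.9%) and without WT replicate 1 (26.2%, beside 35.9%). A shift upward was not particular to these genes. Of the 11 neuron markers, 10 were higher and 1 lower in mutant vehicle (median log2 fold change 0.17), without overlap for 8 upward and 1 downward. Of 31 other genes listed as TOP mRNAs, 26 were higher and 5 lower (0.16), without overlap for 9 and 2. Of 111 tested nuclear genes for oxidative phosphorylation, 88 were higher and 23 lower (0.15), without overlap for 33 and 12. Over all 19695 genes tested, 4030 lay without overlap upward and 4334 downward. The 73 mitochondrial ribosome genes had a median of 0.03. Other lists went down: of 13 mitochondrially encoded genes 2 were higher and 11 lower (−0.19). Of 6 tested muscle genes, 1 was higher and 5 lower (−1.27).

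RPLP0 and RPLP1 had the highest fitted values of the set in this comparison. Of the 4 stalk genes, 3 were among the 8 ribosomal protein genes higher at an unadjusted p under 0.05. RPLP0 had 1816 and 1334 CPM in mutant vehicle, against 1073 and 1175 in WT (log2 fold change 0.50, standard error 0.18, adjusted p = 0.415). RPLP1, which forms a dimer with RPLP2, had 734 and 648 CPM in mutant vehicle, against 469.8 and 523 in WT (log2 fold change 0.49, standard error 0.14, adjusted p = 0.322). The 2 genotypes did not overlap in either gene. The gene rplp2l had 220.3 and 199 CPM in mutant vehicle, against 168 and 153 in WT (log2 fold change 0.39, standard error 0.14, adjusted p = 0.403), and rplp2 had 335 and 277 CPM, against 316 and 298 (log2 fold change 0.0019, standard error 0.15, adjusted p = 0.999). The 2 copies for the same stalk protein thus differed in this comparison, rplp2l without overlap and rplp2 with it, and the difference between them was not tested.

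RPL3 came next, with 1157 and 876 CPM in mutant vehicle and 706 and 795 in WT (log2 fold change 0.45, standard error 0.17, adjusted p = 0.445). RPL28, a large-subunit protein, had 332 and 263 CPM in mutant vehicle and 247 and 193 in WT, and its second WT library was the lowest of the 10 (log2 fold change 0.44). Among the lowest were rps27l (log2 fold change −0.34, standard error 0.22, adjusted p = 0.65) and RPL29 (log2 fold change −0.32, standard error 0.13, adjusted p = 0.468). RPL29 was the 1 gene lower at an unadjusted p under 0.05, with 113 and 106 CPM in mutant vehicle, against 133 and 142 in WT. The mutant vehicle libraries serve in this comparison and in both drug comparisons against vehicle, so a shift in either of them moves all 3.

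**Figure D3:**
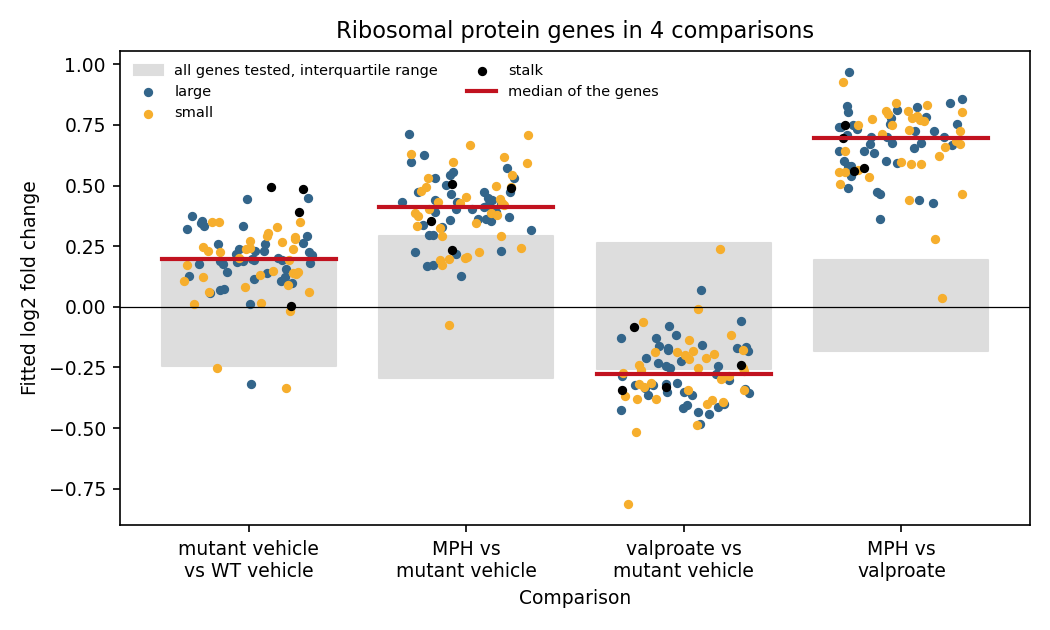
Fitted log2 fold change (y axis) of each ribosomal protein gene in the 4 comparisons (x axis), coloured by subunit, with the median of the genes as a red line and the interquartile range of all genes tested in grey. The medians were 0.20, 0.41, −0.28 and 0.70 from left to right, and no gene had an adjusted p under 0.05 in the edgeR fits on the groups alone.

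Several of these proteins have 2 or more gene copies in the table, and reads that map to both would have been dropped from both. For RPL5, which carries 5S ribosomal RNA into the large subunit with RPL11, the copy ENSDARG00000020197 took 42.8% to 49.6% of the pair, and for RPS26, at the mRNA exit, ENSDARG00000037071 took 36.1% to 46.7%. The copy rplp2l took 32.9% to 41.8% of the pair with rplp2. Of the 3 copies of rps27, rps27.2 took 25.2% to 29.9% and rps27l 1.51% to 3.45%, with the rest on rps27.1.

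Among the genes of the same pathway are FAU and RACK1, which encode a ribosomal protein and a ribosome-bound protein under other names. FAU, a ubiquitin-like protein fused to the small-subunit protein S30, had 795, 369 and 444 CPM with MPH and 341, 309 and 299 with valproate (log2 fold change 0.77, standard error 0.27, adjusted p = 0.997). RACK1, a scaffold on the head of the small subunit, had 1505, 716 and 744 CPM with MPH and 649.7, 560.2 and 473 with valproate (log2 fold change 0.82, standard error 0.29, adjusted p = 0.997). Each had its highest level in MPH replicate 1 and no overlap between the drugs, as most of the 80 did. They belong to a list of 31 genes outside the set, such as elongation factors, chosen by name as TOP mRNAs with no sequence checked. Of these, 27 were higher and 4 lower with MPH than with valproate (median log2 fold change 0.29). At an unadjusted p under 0.05, 10 of the 31 were higher, beside 2.25% of all genes tested. For 11 the drug groups did not overlap, beside 4.46%, and none was called. The list also holds faub, a second copy of FAU, at 25.1, 17.9 and 25.1 CPM with MPH. With valproate faub had 18.9, 22.0 and 22.1 CPM, so the groups overlapped.

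The 44 ribosome assembly factors had a median log2 fold change of 0.09 between MPH and valproate and the 29 mTOR and TOP regulators 0.15. The 73 genes of the mitochondrial ribosome, a separate machine, had 0.18, and of 112 tested nuclear genes for oxidative phosphorylation (OXPHOS) 103 were higher and 9 lower with MPH, with a median of 0.35. Of the 112 OXPHOS genes, 2 were higher at an unadjusted p under 0.05, beside 2.25% of all genes tested. For 1 of the 112 the drug groups did not overlap with MPH higher, beside 4.46%. That held for 6 of the 44 assembly factors, 6 of the 29 regulators and 8 of the 73 mitochondrial ribosome genes. In these 3 lists 1, 2 and 0 genes lay without overlap the other way. At an unadjusted p under 0.05, 2, 4 and 1 of them were higher and 0 lower, in that order. No gene of these lists had an adjusted p under 0.05 in any of the 4 comparisons. The median OXPHOS gene stood 0.11 (log2) above its mean in valproate replicate 1, and at −0.04 and 0.02 in MPH replicates 2 and 3. In MPH replicate 1 the median OXPHOS gene stood 0.65 (log2) above its mean, and the summed OXPHOS level was 29925.6 CPM there, against 15066.1 to 20249.0 CPM in the other 9 libraries. LARP1, which binds the cap of TOP mRNAs, had 97.4, 108 and 67.1 CPM in MPH libraries and 109.7, 88.5 and 105 in valproate. It had 138 and 128 CPM in mutant vehicle and 87.1 and 98.4 in WT. Its mean was lower with MPH (90.9 CPM) than in mutant vehicle (133 CPM). Of the 29 regulators, 20 had higher and 9 lower fitted values in that comparison, so LARP1 does not stand for the list. At an unadjusted p under 0.05, 6 of the 29 were higher and 1 lower, beside 6.73% of all genes tested that were higher. All MPH libraries lay above both mutant vehicle libraries for 14 and below both for 2, beside 15.7% of all genes that lay above.

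**Figure D4:**
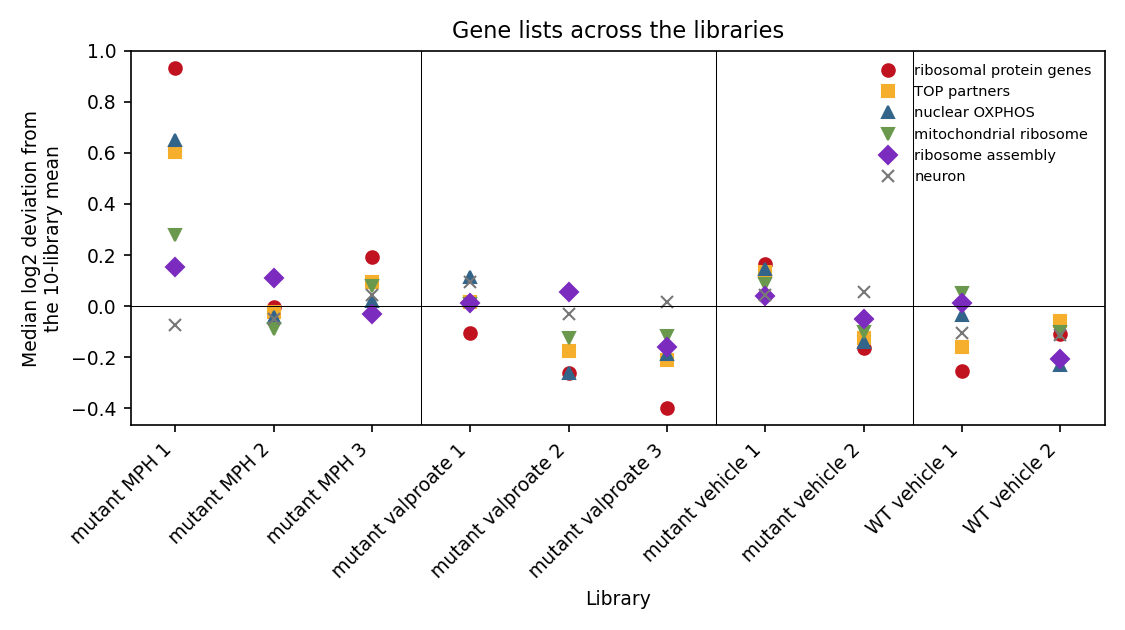
Median log2 deviation of each gene list from its 10-library mean (y axis) in each library (x axis), for the ribosomal protein genes, genes listed as TOP mRNAs, nuclear OXPHOS genes, the mitochondrial ribosome, ribosome assembly factors and neuron markers. In MPH replicate 1 the ribosomal protein genes stood at 0.93, the OXPHOS genes at 0.65 and the neuron markers at −0.07.

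Markers of other cells also differed between libraries. The 5 blood genes summed to 98.4, 73.7 and 327 CPM in MPH libraries, 72.6, 99.0 and 95.3 in valproate, 331 and 340 in mutant vehicle and 133 and 322 in WT, and 3 of the 4 tested fell with valproate against mutant vehicle: hbaa1, a haemoglobin chain (log2 fold change −2.02, standard error 0.17, adjusted p = 0.0148), alas2, the first enzyme of haem synthesis in red cells (log2 fold change −1.65, standard error 0.15, adjusted p = 0.0173), and SLC4A1 (log2 fold change −1.87, standard error 0.19, adjusted p = 0.0213). In blood genes, MPH replicates 1 and 2 were both nearer to the valproate libraries than to mutant vehicle. Replicate 1 had the highest ribosomal protein level, and replicate 2 a median ribosomal protein deviation of −0.0042 (log2). The 9 genes of proliferating cells summed to 187, 118 and 110 CPM in MPH libraries, 127, 94.4 and 78.5 in valproate, 262 and 196 in mutant vehicle and 111 and 124 in WT. Of these, TOP2A fell with MPH (log2 fold change −1.70, standard error 0.25, adjusted p = 0.0491) and MCM2 with valproate (log2 fold change −2.19, standard error 0.23, adjusted p = 0.0275), both against mutant vehicle, as did a radial glia gene, FABP7 (ENSDARG00000034650), with valproate (log2 fold change −1.60, standard error 0.19, adjusted p = 0.0435). Over the 10 libraries, muscle genes summed to between 6.1 and 28.3 CPM, pituitary genes to between 1.37 and 65.7, retina and lens genes to between 1.82 and 99.9, microglia genes to between 243 and 486, endothelium genes to between 46.2 and 70.1 and radial glia genes to between 6017.6 and 9498.7. Pituitary genes stood high in MPH replicate 2 (65.7) and valproate replicate 1 (64.4), and reached at most 8.09 in the other libraries. Retina and lens genes stood high in valproate replicate 2 (99.9) and WT replicate 2 (57.4), and reached at most 9.51 in the others. The 6 oligodendrocyte genes summed to 9391.4, 9080.8 and 7503.4 CPM in MPH libraries, 10262.9, 6121.9 and 7246.7 in valproate, 12980.4 and 10047.4 in mutant vehicle and 13873.4 and 8621.3 in WT. Against mutant vehicle, all 6 had lower fitted values with MPH (median log2 fold change −0.57, 3 at an unadjusted p under 0.05). The same held with valproate (median −0.69, 5 at that level), and none was called. Over all genes tested, 989 of 19907 were lower at that level with MPH and 1553 of 19850 with valproate. All 5 muscle genes tested for MPH against mutant vehicle had higher fitted values (median log2 fold change 1.09, 3 at an unadjusted p under 0.05). So did 5 of 6 for valproate (median 0.94, 1 at that level), and none was called. Over all genes tested, 1339 of 19907 were higher at that level with MPH and 1803 of 19850 with valproate. The part of these cells in the ribosomal protein values was not tested.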

How the data were processed

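Brain RNA of 10 libraries in 4 groups was converted to cDNA libraries with a kit that does not mark strand and sequenced as paired reads. The authors filtered and trimmed the reads, aligned them to the zv10 release with STAR (version 2.6.1d in the submitters' processing notes) and took the counts of its GeneCounts mode. The deposited counts are whole numbers and were not normalized. Reads that fit several genes are not counted, so genes with near-identical copies or pseudogenes are uncertain, and antisense or overlapping genes cannot be told apart.

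Of 32266 identifiers, 26433 matched a symbol. Totals of 19224942 to 25851076 counts per library set the precision, and a count of 0 allows up to 3 counts. Each comparison was fitted on its own libraries in edgeR 4.0.16 (R 4.3.3) after filterByExpr at a minimum count of 10 and a minimum total of 15, with TMM scaling, the quasi-likelihood test and Benjamini-Hochberg adjustment over all genes tested, with a threshold of 0.05. The test was tested on simulated data, with changes larger than the medians here and each gene drawn independently. It does not speak to small shifts of genes that move together. CPM was scaled over all 10 libraries. Tables and plots used Python 3.11.15, pandas 2.3.3 and matplotlib 3.10.9.

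The genes and lists were chosen with earlier results of these data known. Named were the 5 genes of highest and the 5 of lowest mean CPM, per comparison every gene with an adjusted p under 0.05 or otherwise the 3 highest and 3 lowest log2 fold changes, paralogous copies, the stalk genes and, of the other lists, every called gene, at most 3 a direction a list. Names that differ by a final a, such as RPL7 and RPL7A, are different proteins and were not set together. A listed gene whose name ends in a or b was also matched without that letter. RPL28, RPL35, FAU, RACK1 and LARP1 were named after their values were seen. Alternatives were DESeq2 1.42.0 (Wald test and size factors), scaling without these genes, other filters, all libraries in 1 fit, the replicate number as a block and leaving out each library; those for counts without overlap were chosen after seeing the data. Sequences of these genes are not analysed here, and values of some genes that the naming rule takes are not reported here.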

Additional observations from a re-analysis of the deposited data

How the results depend on the processing

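Medians of the ribosomal protein genes kept their direction in every alternative for which they were computed. Leaving out 1 library at a time, the median log2 fold change ranged from 0.012 to 0.37 between genotypes, from 0.080 to 0.58 for MPH against mutant vehicle, from −0.43 to −0.11 for valproate against mutant vehicle and from 0.35 to 0.87 for MPH against valproate. The number of genes at an unadjusted p under 0.05 ranged from 0 to 27, 0 to 21, 0 to 51 and 7 to 77 in the same order, and the share of all genes from 2.02% to 7.05%, 2.63% to 11.1%, 3.25% to 11.4% and 0.658% to 4.84%. Between genotypes DESeq2's Wald test called 1 gene (1.23%), RPLP1, beside 1.09% of all genes. It gave 13 genes (16.0%) higher at an unadjusted p under 0.05, beside 3.39% of all genes, where 1 fit over all 10 libraries gave 0, beside 2.82%. For MPH against mutant vehicle this number was 5 (6.17%) in DESeq2, beside 5.86% of all genes, 11 (13.6%) without a low-count filter, beside 5.81%, and 11 (13.6%) in 1 fit over all libraries, beside 8.12%. For valproate against mutant vehicle the number lower was 26 (32.1%) in DESeq2, beside 5.68% of all genes, and 24 (29.6%) without a low-count filter, beside 6.36%. It was 0 in 1 fit over all libraries, beside 5.13%. Single values changed sign near 0. RPL4 (MPH against mutant vehicle) ranged from −0.016 (without mutant vehicle replicate 2) to 0.27 with 1 library left out, and was at −0.0048 without MPH replicate 1. RPS25 (valproate against mutant vehicle) was at 0.0039 in 1 fit over all libraries and ranged from −0.099 to 0.086 with 1 library left out, above 0 without valproate replicate 3 and without mutant vehicle replicate 1. The cause was not tested.

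The labels do not say that the replicate numbers pair the samples. Same-numbered deviations correlated at 0.0677 between genotypes, 0.112 and 0.0542 for MPH, 0.0986 and −0.00284 for valproate, each against mutant vehicle, and 0.237, −0.257 and 0.208 for MPH against valproate. With so few libraries these correlations cannot exclude a pairing. With the replicate number as a block, 33 genes (40.7%) were called for MPH against mutant vehicle, beside 13.5% of all genes, with 61 (75.3%) higher at an unadjusted p under 0.05, beside 14.4%, and for valproate 8 (9.88%) were lower at that level, beside 6.44%, and RPS25 was at 0.045. The block called none in the other comparisons. Against mutant vehicle, the blocked fits hold almost as many terms as libraries, so their counts rest on very little measured spread. MPH and valproate replicate 3 have no same-numbered mutant vehicle library there and add nothing to the fitted drug difference. Groups of 2 or 3 libraries limit every comparison.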
